A study of Mus musculus with 8 samples.

Results

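A group of 10 genes that restrain MAPK signaling was examined in mouse pancreas: the dual-specificity phosphatase genes *Dusp1*, *Dusp2*, *Dusp4*, *Dusp5*, *Dusp6*, and *Dusp10*, the Sprouty genes *Spry1*, *Spry2*, and *Spry4*, and *Spred1*. They were taken by symbol, and all 10 were found among the 48709 genes listed for each library. RNA-Seq was performed on pancreata of male mice aged 8 weeks, 24 hours after saline or after the alcoholic model of severe acute pancreatitis (FAEE-SAP), with 2 libraries in each of the 4 groups. FAEE-SAP was induced by i.p. palmitoleic acid (POA) and ethanol, and per the study's methods these mice also received saline and buprenorphine. WT mice were bought from a vendor. The cKO mice were *Pfkfb3* fl/fl; *Pdx1*-Cre, in which Cre is driven by the promoter of a pancreatic transcription factor and removes exons 2 and 3 of *Pfkfb3*, so that WT and cKO also differed in breeding origin and in Cre. The study performed RNA-Seq to ask how loss of *Pfkfb3* changes the pancreas in FAEE-SAP. Here the comparisons ask whether transcripts of these feedback genes differ with FAEE-SAP within each genotype, and between genotypes under each treatment.

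MAPK cascades carry signals from growth factors, cytokines, calcium, and stress through the kinases ERK, JNK, and p38. The dual-specificity phosphatases remove phosphate from threonine and tyrosine of the activated kinases, and many of their genes are themselves switched on by the pathway, which makes them a negative feedback loop. Sprouty and Spred proteins act further upstream, between receptor tyrosine kinases and Ras or Raf. In the pancreas, secretagogues and injury activate ERK, JNK, and p38 in acinar cells, and infiltrating leukocytes bring their own MAPK signaling into the tissue.

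The 10 genes lie on 9 chromosomes, and GENCODE vM21 (build GRCm38) annotates each as protein coding. *Dusp1* spans chr17:26505590-26562128 on the minus strand, *Dusp4* chr8:34807297-34819894 on the plus strand, *Dusp5* chr19:53529109-53542431 on the plus strand, and *Spry2* chr14:105891947-105896819 on the minus strand. Exons of *Dusp1* overlap *Ergic1* on the opposite strand, and exons of *Spry1* and *Dusp5* overlap noncoding antisense genes. Whether the counting used strand is not stated, so values of these 3 genes are uncertain to that extent. Promoter sequence, from 250 bases before to 50 bases after the start in RefSeq on build GRCm38.p6, was given for 8 of the 10 genes. Both strands were searched for 7 motifs of factors that act downstream of MAPK, calcium, cytokine, or glucocorticoid signaling. The following windows are shown because *Dusp1* and *Dusp5* were the members with a match, and because *Errfi1*, described later for its likeness to *Dusp1*, holds the same element. Each is written 5′ to 3′ along its gene's strand, and capitals mark the matches.
Dusp1, chr17:26508423-26508722, minus strand: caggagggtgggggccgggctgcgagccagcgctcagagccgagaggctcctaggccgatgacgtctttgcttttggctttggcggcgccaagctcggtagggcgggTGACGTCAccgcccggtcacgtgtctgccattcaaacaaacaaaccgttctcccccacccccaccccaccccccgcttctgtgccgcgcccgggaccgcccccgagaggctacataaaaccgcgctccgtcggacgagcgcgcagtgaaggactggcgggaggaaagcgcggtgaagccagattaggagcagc
Dusp5, chr19:53528895-53529194, plus strand: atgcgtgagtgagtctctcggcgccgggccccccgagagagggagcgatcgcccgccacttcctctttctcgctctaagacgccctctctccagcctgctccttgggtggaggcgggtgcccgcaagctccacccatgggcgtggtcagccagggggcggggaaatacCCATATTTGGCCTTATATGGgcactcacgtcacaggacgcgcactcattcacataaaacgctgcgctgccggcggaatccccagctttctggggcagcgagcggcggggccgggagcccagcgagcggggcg
Errfi1, chr4:150854820-150855119, plus strand: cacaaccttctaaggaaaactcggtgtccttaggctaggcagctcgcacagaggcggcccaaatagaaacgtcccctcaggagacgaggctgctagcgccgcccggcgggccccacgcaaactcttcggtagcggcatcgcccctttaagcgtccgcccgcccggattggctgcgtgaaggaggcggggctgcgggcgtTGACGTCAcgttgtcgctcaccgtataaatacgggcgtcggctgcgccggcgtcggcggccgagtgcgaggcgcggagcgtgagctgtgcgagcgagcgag

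The capitals in *Dusp1* and *Errfi1* are the cAMP response element TGACGTCA, which begins 143 and 51 bases before the start, respectively. This element is the textbook site of CREB, a factor activated by calcium and cAMP. It was found in 1.79% of the 32851 promoter windows of the same length. Of the 5 genes whose levels were most like *Dusp1*, all had at least 1 window, and the element was found in 1 of their 7 windows, which is 1 of the 2 of *Errfi1*. That window was chosen for display after its match was seen. The capitals in *Dusp5* are a pair of abutting serum response elements, the site at which serum response factor acts with ERK-activated ETS partners. They begin 82 and 72 bases before the start, and 1.63% of all windows held at least 1 such element. None of the 8 windows held the AP-1 site (TGACTCA or TGAGTCA, in 5.2% of all windows), the ETS site CCGGAAGT (3.89%), the NF-kB site GGGANTTCC (1.68%), the EGR site GCGTGGGCG (0.612%), or the glucocorticoid response element (0.475%). These are matches of letters in a short window, and binding was not measured.

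Expression was deposited as RPKM, which divides the reads of a gene by its exon length and by the mapped reads of the library and is therefore a share of each library. Library totals recovered from the low values were 22.9 to 37.8 M reads. A single read on 2 kb of exon corresponds to 0.0132 to 0.0218 RPKM. Because digestive enzyme transcripts make up most of this tissue's RNA and were lower in FAEE-SAP, each library was divided by its median-of-ratios factor, which ranged 3.26-fold, from 0.621 to 2.02. All values below are scaled RPKM unless stated otherwise. Summed acinar markers (10 genes) with FAEE-SAP were 60040 and 60400 for WT mice and 151500 and 172700 for cKO mice, all below the 4 saline libraries at 186000 to 257000. The labeled tissue therefore had its defining markers in every library. Summed neutrophil markers (6 genes) with FAEE-SAP were 58.6 and 53.1 for WT mice and 19.7 and 12.2 for cKO mice, all above the saline libraries at 1.21 to 3.65. In whole tissue, fewer cells of a type and less RNA per cell cannot be told apart. *Pfkfb3* itself was 1.70 and 1.69 in WT saline, 1.85 and 3.21 in WT FAEE-SAP, 0.880 and 2.10 in cKO saline, and 1.74 and 2.82 in cKO FAEE-SAP. The genotypes overlapped under both treatments, and since a value for the whole gene says little about 2 deleted exons, it does not check the genotype labels, on which every genotype comparison rests.

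The feedback genes were expressed at low levels in every group. Averaged over the 8 libraries, *Dusp1* had the highest level per kilobase (2.79 scaled RPKM), followed by *Dusp6* (1.60), *Spry1* (1.41), *Spred1* (1.40), *Spry2* (0.999), *Dusp2* (0.952), and *Dusp5* (0.668). *Dusp4* (0.216), *Spry4* (0.202), and *Dusp10* (0.165) were lowest. *Dusp4* spread 8.93-fold, *Dusp1* 7.3-fold, *Spry4* 6.5-fold, and *Dusp5* 5.57-fold between their lowest and highest library. *Spry1*, *Spry2*, and *Spred1* spread 2.27-fold, 2.14-fold, and 2.09-fold. The ranges over libraries overlapped for all neighbors in this order.

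**Figure D1:**
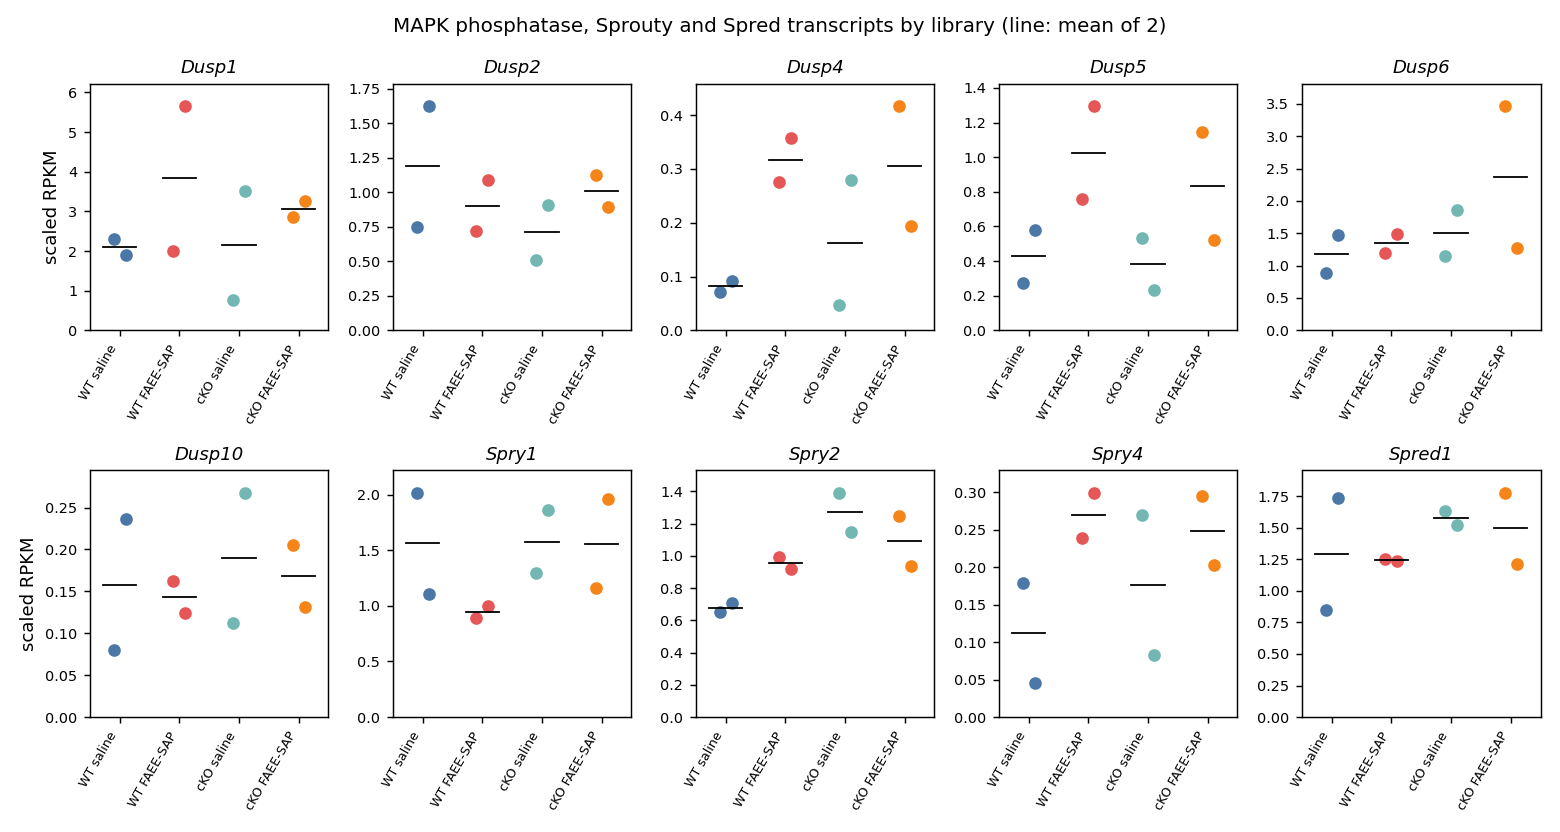
Scaled RPKM (y axis, a linear scale for each gene) of the 10 feedback genes in the 4 groups (x axis), with a point for each library and a line at the mean of 2. In WT, *Dusp4*, *Dusp5*, *Spry2*, and *Spry4* lay higher and *Spry1* lower in both FAEE-SAP libraries than in both saline libraries, and the cKO points of every gene overlapped between treatments.

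*Dusp1* encodes a nuclear phosphatase of p38, JNK, and ERK that is induced within minutes of stress and by glucocorticoids. Its level was 2.32 and 1.91 in WT saline, 2.01 and 5.66 in WT FAEE-SAP, 0.775 and 3.52 in cKO saline, and 2.86 and 3.27 in cKO FAEE-SAP. Replicate 2 of WT FAEE-SAP was the highest library and replicate 1 of cKO saline the lowest, and the groups overlapped within each genotype. The 2 libraries of a group differed 4.54-fold in cKO saline and 2.81-fold in WT FAEE-SAP, which exceeded the difference between group means.

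*Dusp4* encodes a nuclear phosphatase of ERK and JNK. It was 0.0707 and 0.0925 in WT saline, 0.275 and 0.357 in WT FAEE-SAP, 0.0467 and 0.280 in cKO saline, and 0.417 and 0.194 in cKO FAEE-SAP. Both WT FAEE-SAP libraries lay above both WT saline libraries, whereas the cKO groups overlapped. These levels rest on few reads, which were worked out as 4 and 6 in WT saline and 35 and 62 in WT FAEE-SAP. *Dusp4* reached the minimum for testing (a deposited RPKM of 0.5 in at least 2 libraries) only through the WT FAEE-SAP libraries, at 0.557 and 0.691, so that the separation in WT is in part fixed by the filter.

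*Dusp5* encodes a nuclear phosphatase specific for ERK. It was 0.274 and 0.581 in WT saline, 0.758 and 1.30 in WT FAEE-SAP, 0.535 and 0.232 in cKO saline, and 1.15 and 0.523 in cKO FAEE-SAP. The WT groups did not overlap. In cKO, the lower FAEE-SAP library was just below the higher saline library. Approximate reads were 14 and 34 in WT saline and 87 and 203 in WT FAEE-SAP.

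*Dusp2*, whose product acts on ERK and p38 and is best known from activated leukocytes, had 0.749 and 1.62 in WT saline, 0.721 and 1.09 in WT FAEE-SAP, 0.511 and 0.908 in cKO saline, and 1.12 and 0.894 in cKO FAEE-SAP. All groups overlapped within a genotype, and how far *Dusp2* follows the leukocytes of the tissue was not tested. *Dusp6*, the cytoplasmic phosphatase of ERK, was 0.883 and 1.48 in WT saline, 1.20 and 1.49 in WT FAEE-SAP, 1.14 and 1.87 in cKO saline, and 3.47 and 1.28 in cKO FAEE-SAP. A single library, replicate 1 of cKO FAEE-SAP, stood above the other 7, which reached 1.87 at most. *Dusp10*, which encodes a phosphatase of JNK and p38, ranged from 0.0796 to 0.268 and was below the minimum for testing. Both its extremes were saline libraries, and its estimated reads were 5 to 24 per library.

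*Spry1* and *Spry2* encode membrane-associated inhibitors of receptor tyrosine kinase signaling to ERK. *Spry1* was 2.02 and 1.10 in WT saline, 0.890 and 0.999 in WT FAEE-SAP, 1.29 and 1.86 in cKO saline, and 1.16 and 1.96 in cKO FAEE-SAP. The WT FAEE-SAP libraries were the 2 lowest of the 8. *Spry2* was 0.650 and 0.709 in WT saline, 0.992 and 0.916 in WT FAEE-SAP, 1.39 and 1.15 in cKO saline, and 1.25 and 0.938 in cKO FAEE-SAP. Its replicates lay close together, within 1.33-fold in every group, and the WT saline libraries were the 2 lowest. *Spry4* was 0.179 and 0.0461 in WT saline and 0.239 and 0.299 in WT FAEE-SAP. It was 0.270 and 0.0835 in cKO saline and 0.294 and 0.202 in cKO FAEE-SAP. *Spry4* was below the minimum for testing in these libraries, although its WT groups did not overlap.

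*Spred1* encodes a protein that brings neurofibromin to the membrane, where Ras is inactivated. Its level was 0.849 and 1.73 in WT saline, 1.25 and 1.23 in WT FAEE-SAP, 1.63 and 1.52 in cKO saline, and 1.78 and 1.21 in cKO FAEE-SAP. Replicate 1 of WT saline was the lowest library, and the groups overlapped within each genotype.

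Against saline, FAEE-SAP in WT mice gave the highest fitted increases for *Dusp4* (2.29-fold) and *Dusp5* (2.17-fold), followed by *Dusp1* (1.58-fold) and *Spry2* (1.35-fold), and *Spry1* had 0.653 times its saline level. None of these passed the threshold. Changes were tested with limma on log2(scaled RPKM + 0.1), which understates the change of genes at low levels, and a gene was called when its p-value, adjusted by Benjamini-Hochberg over the 11133 genes tested, was under 0.05 and its change was at least 2-fold. Of the 8 feedback genes tested, 0 were called, 0 had an unadjusted p-value under 0.05, and voom on reads worked out from the RPKM also called 0. Among all genes, 3.36% were called higher and 4.12% lower, and 29.1% had an unadjusted p-value under 0.05. The median log2 fold change was 0.32 for the 8 genes, with 6 higher and 2 lower, and 0.01 for all genes tested. Because *Dusp4* was tested only through the WT FAEE-SAP libraries, its rank and the median and counts of the 8 genes are in part fixed by the filter.

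The log2 fold change in limma was 1.19 for *Dusp4* (SE 0.51, 95% interval -0.01 to 2.39, adjusted p = 0.175). By the same test it was 1.12 for *Dusp5* (SE 0.50, 95% interval -0.06 to 2.29, adjusted p = 0.189). *Dusp1* had 0.66 in limma (SE 0.68, 95% interval -0.93 to 2.25, adjusted p = 0.575), an interval too wide to exclude a change of 2-fold in its direction. Without replicate 2 of WT FAEE-SAP, the value for *Dusp1* was -0.049. For *Spry2* the value was 0.43 (SE 0.21, adjusted p = 0.217, limma), with an interval from -0.06 to 0.92. *Spry1* had -0.61 (SE 0.35, 95% interval -1.44 to 0.21, adjusted p = 0.297, limma). The remaining estimates were 0.21 for *Dusp6*, -0.29 for *Dusp2*, and 0.03 for *Spred1*, with adjusted p-values in limma of 0.817, 0.686, and 0.967. Without the filter, *Spry4* had 0.90 (SE 0.45, adjusted p = 0.339 over 20358 genes, limma) and *Dusp10* 0.01.

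Both FAEE-SAP libraries lay above both saline libraries in WT for 3 of the 8 genes tested (*Dusp4*, *Dusp5*, and *Spry2*), beside 29.1% of all genes. They lay below for *Spry1*, 1 of 8, beside 29.4% of all genes. Because *Dusp4* was tested only through the WT FAEE-SAP libraries, the count of 3 is in part fixed by the filter. An exact permutation test of 2 libraries against 2 has 0.33 as its smallest two-sided p-value. In simulated data of the same size, the limma test called 97% of genes changed 4-fold and 20% of genes changed 2-fold, so a true 2-fold change of a feedback gene would usually have been missed.

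**Figure D2:**
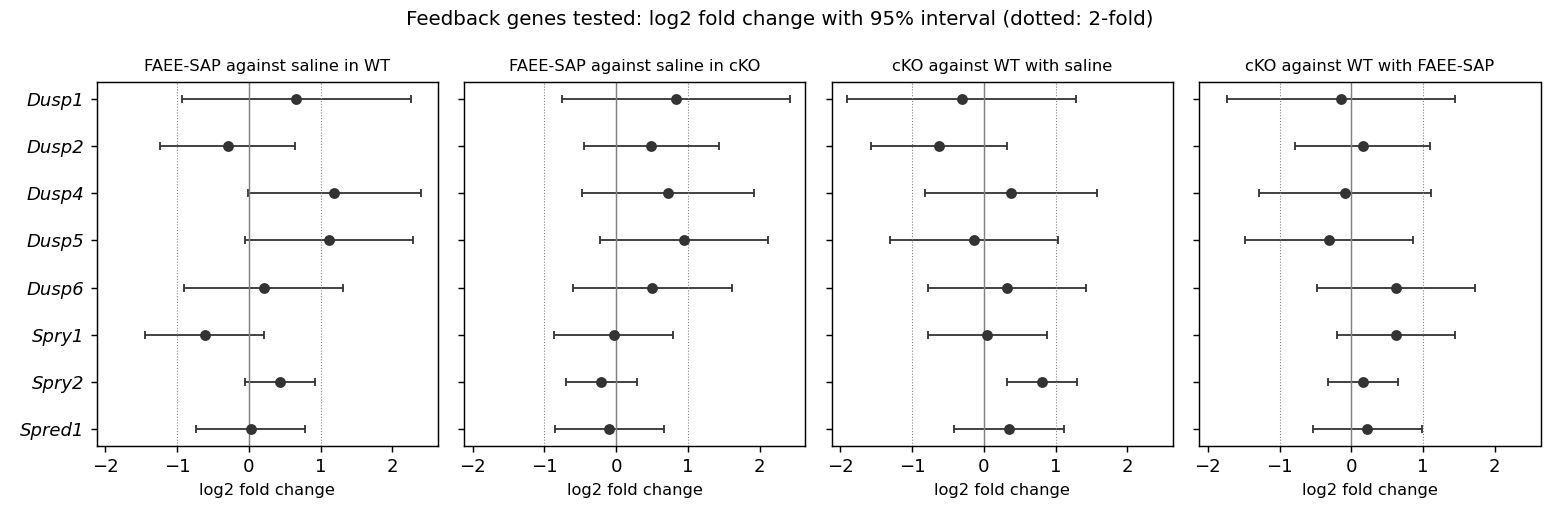
Log2 fold change (x axis, points) with its 95% interval from limma (bars) for the 8 feedback genes tested, in the 4 comparisons named above the panels; dotted lines mark 2-fold. Only the interval of *Spry2* in cKO against WT with saline, from 0.32 to 1.30, leaves out 0, before any adjustment for the number of genes.

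In cKO mice, FAEE-SAP against saline gave estimates from -0.21 for *Spry2* to 0.94 for *Dusp5* on the log2 scale. Of the 8 genes tested, 0 were called by limma, 0 had an unadjusted p-value under 0.05, and 0 were called by voom, beside 0.126% of all genes called higher, 0.00898% called lower, and 10.9% with such an unadjusted p-value. *Dusp5* had 0.94 (SE 0.50, adjusted p = 0.536), *Dusp1* 0.83 (SE 0.68, adjusted p = 0.681), and *Dusp4* 0.72 (SE 0.51, adjusted p = 0.631), all from limma. The value of *Dusp1* was -0.20 without replicate 1 of cKO saline, the library where it was low. *Dusp6* had 0.50 (adjusted p = 0.722, limma), which was -0.18 without replicate 1 of cKO FAEE-SAP, the library where it was high. *Dusp2* had 0.49 and *Spred1* -0.10, and *Spry1*, at -0.04, was almost level. The median was 0.50 for the 8 genes and -0.02 for all genes. No feedback gene had libraries that did not overlap in either direction, beside 20.2% of all genes higher and 21.9% lower.

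With saline, *Spry2* was the feedback gene that differed most between genotypes relative to its spread, at 1.75 times the WT level in cKO. Its log2 fold change was 0.81 (SE 0.21, 95% interval 0.32 to 1.30), with an unadjusted p-value of 0.00568 and an adjusted p-value of 1 in limma. It ranked 32 of 11133 genes by p-value. It was higher in both cKO libraries than in both WT libraries, as for 15.6% of all genes, and no feedback gene was lower in this way, beside 13.6% of all genes. Of the 8 genes tested, 0 were called and *Spry2* was the only one with an unadjusted p-value under 0.05. Of all genes, 0% were called in either direction by limma, 293 genes (2.63%) had an unadjusted p-value under 0.05, and voom called 0 genes. The other estimates ranged from -0.62 for *Dusp2* to 0.38 for *Dusp4*.

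With FAEE-SAP, cKO against WT gave 0.63 for both *Dusp6* (SE 0.47, adjusted p = 0.481) and *Spry1* (SE 0.35, adjusted p = 0.342) in limma, each 1.54-fold. The value of *Dusp6* was -0.051 without replicate 1 of cKO FAEE-SAP. Both cKO libraries lay above both WT libraries for *Spry1* alone, 1 of 8 genes beside 26.8% of all genes, and 0 lay below, beside 25.1%. *Dusp5* had -0.31, *Dusp1* -0.14, and *Dusp4* -0.09, and the SEs, from 0.50 to 0.68, exceeded each of these. *Spred1* had 0.22, *Spry2* 0.17, and *Dusp2* 0.16. Of the 8 genes, 0 were called by limma, 0 had an unadjusted p-value under 0.05, and 0 were called by voom, beside 1.66% of all genes called higher, 0.988% called lower, and 23% with such an unadjusted p-value. This comparison shares its WT FAEE-SAP libraries with the comparison of treatments in WT, so that *Spry1*, lowest in those 2 libraries, appears in both.

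Whether the response to FAEE-SAP differed between genotypes was tested as an interaction. It ranged from -0.64 for *Spry2* (SE 0.30, unadjusted p = 0.0648, adjusted p = 0.43, limma) to 0.78 for *Dusp2* (SE 0.57, adjusted p = 0.607, limma). For *Dusp4* and *Dusp5*, whose WT groups did not overlap while the cKO groups did, it was -0.47 (SE 0.73) and -0.18 (SE 0.71), so no difference between genotypes was detectable. Of the 8 genes, 0 were called by limma, 0 had an unadjusted p-value under 0.05, and 0 were called by voom, beside 0.0449% of all genes called higher, 0.0269% lower, and 12.6% with such an unadjusted p-value.

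The scale decides what is seen of these genes. As deposited, *Dusp1* rose in WT from 1.69 and 1.66 RPKM to 4.07 and 10.9, *Dusp5* from 0.200 and 0.503 to 1.53 and 2.51, and *Spry2* from 0.473 and 0.614 to 2.01 and 1.77. On that scale limma called 6 of the 8 genes higher with FAEE-SAP in WT, namely *Dusp5* (log2 fold change 2.28), *Dusp4* (2.13), *Dusp1* (1.94), *Spry2* (1.63), *Dusp6* (1.44), and *Spred1* (1.26). But 7122 genes, 64% of those tested, were called higher with it, and the median over all genes was 1.23 beside 1.54 for the 8 feedback genes. *Dusp2* (0.91) and *Spry1* (0.61) lay below that median. *Dusp4*, among the 6 called, was tested only through the WT FAEE-SAP libraries. In cKO the corresponding medians were 0.57 over all genes and 1.04 over the feedback genes. Of the feedback genes, 0 were called there, beside 743 genes (6.67% of all) called higher and 2 called lower. Between genotypes with FAEE-SAP, all 8 were lower in cKO as deposited, with a median of -0.73 beside -0.90 over all genes. Of the 8, 0 were called, beside 4377 of all 11133 genes called lower and 77 called higher. *Spry2* came nearest, at -0.73 (adjusted p = 0.031, limma), short of 2-fold.

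**Figure D3:**
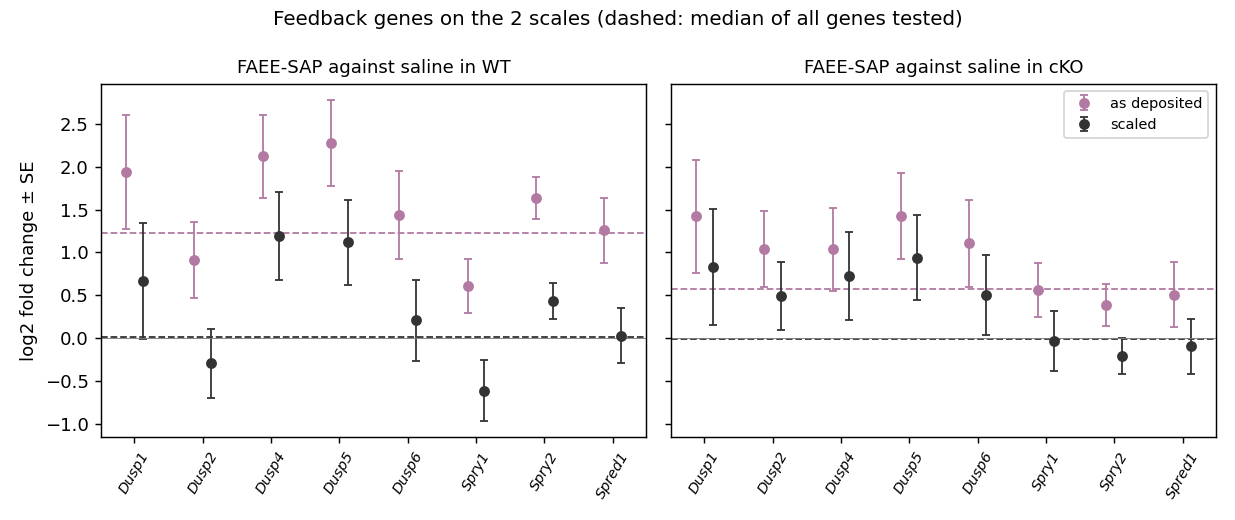
Log2 fold change with FAEE-SAP (y axis, points ± SE from limma) of the 8 feedback genes tested (x axis), from RPKM as deposited and after scaling, in WT and cKO; dashed lines mark the median of all genes tested. In WT the deposited values sit around an all-gene median of 1.23 and the scaled values around 0.01, and the order of the genes is the same on both scales but for *Dusp4* and *Dusp5*.

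The rest of the pathway was read from lists of known members. Of 16 tested transcripts that ERK signaling induces, 4 rose in WT with FAEE-SAP and 0 fell, beside 3.36% and 4.12% of all genes, with 15 estimates above 0 and a median log2 fold change of 0.57. *Junb*, an AP-1 subunit, had 1.68 and 2.001 in WT saline and 14.7 and 19.9 in WT FAEE-SAP, and rose by 3.15 (adjusted p = 0.0033, limma). *Ier3*, an immediate early gene that affects cell survival, rose by 2.84 (adjusted p = 0.0254, limma). *Plaur*, the urokinase receptor, rose by 1.85 (adjusted p = 0.0416, limma) and *Fosl1*, another AP-1 subunit, by 1.81 (adjusted p = 0.0421, limma). *Fosl1* was listed at 0 in 1 WT saline library and *Plaur* reached 0.452 at most there, so both rest on few reads, and both reached the minimum for testing only through the WT FAEE-SAP libraries. The same holds for 4 of the 16 transcripts tested, so the counts and the median of this list are in part fixed by the filter. With voom, *Junb* and *Ier3* were called and the other two were not. Several of these genes are also expressed by leukocytes, whose neutrophil markers were higher in the same libraries, and the part this plays was not tested.

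**Figure D4:**
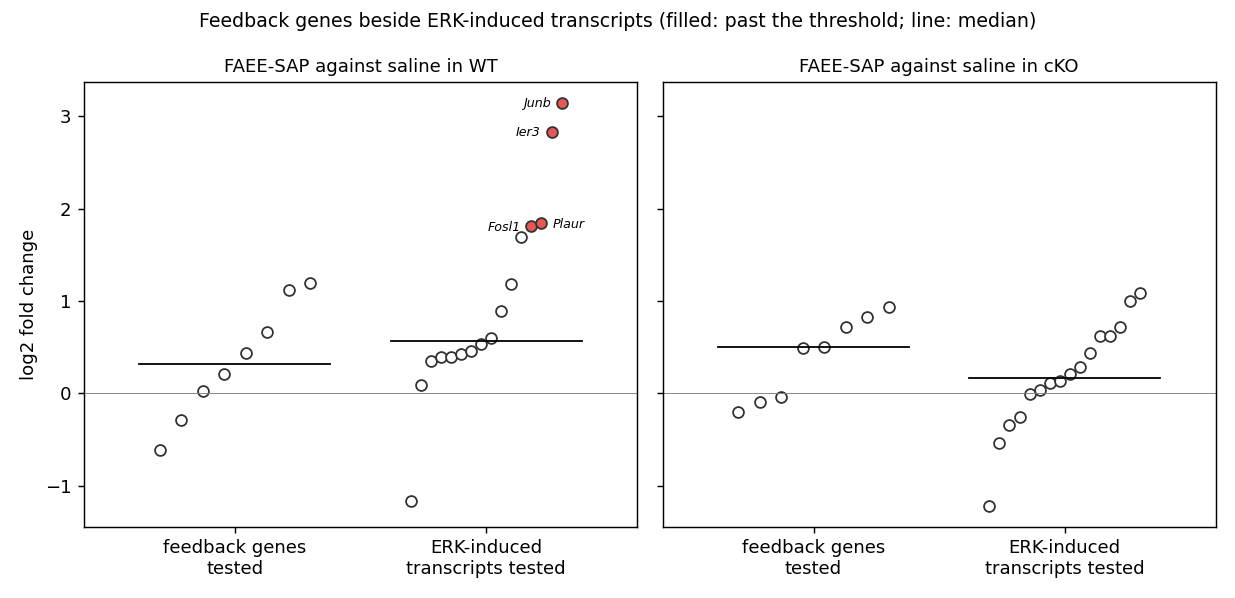
Log2 fold change with FAEE-SAP (y axis) of the 8 feedback genes and 16 ERK-induced transcripts tested, in WT and cKO; filled points passed the threshold in limma and lines mark medians. The 4 filled points, *Junb*, *Ier3*, *Plaur*, and *Fosl1*, are ERK-induced transcripts in WT, at 1.81 to 3.15, above the highest feedback gene, *Dusp4*, at 1.19, although *Plaur*, *Fosl1*, and *Dusp4* were tested only through the WT FAEE-SAP libraries, so their height in WT is in part fixed by the filter.

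In cKO, 0 of the 16 ERK-induced transcripts passed the threshold with FAEE-SAP in limma, 1 had an unadjusted p-value under 0.05 beside 10.9% of all genes, voom called 0, and their median was 0.17. Between genotypes with FAEE-SAP, *Junb* was lower in cKO, at 4.17 and 4.19 beside 14.7 and 19.9 in WT (log2 fold change -2.01, adjusted p = 0.0326, limma), beside 0.988% of all genes called lower. Of the 16, 3 had estimates above 0, beside 50.5% of all genes, and 4 of the 16 were tested only through the WT FAEE-SAP libraries, which favors lower values in cKO. Among 6 other dual-specificity phosphatases tested, *Dusp22*, which encodes an atypical member acting on JNK signaling, fell in WT with FAEE-SAP, from 2.36 and 2.13 to 0.976 and 0.914, by 1.17 on the log2 scale (adjusted p = 0.0193, limma). Among 12 other inhibitors of receptor and Ras signaling, *Spred3*, a relative of *Spred1*, rose from 0.0856 and 0.102 to 0.703 and 0.474 (log2 fold change 1.81, adjusted p = 0.0165, limma). Like *Dusp4*, it reached the minimum for testing only through the WT FAEE-SAP libraries. Of 24 Ras-ERK cascade genes tested, the receptor gene *Erbb3* rose (2.70, adjusted p = 0.0476, limma), and of 15 JNK and p38 cascade genes the p38-activated kinase gene *Mapkapk2* rose (1.51, adjusted p = 0.0179, limma). Over these 4 lists, 3 of 57 genes were called higher and 1 lower in WT, beside 3.36% and 4.12% of all genes. In WT, 21 of the 57 had an unadjusted p-value under 0.05 beside 29.1% of all genes, and voom called 6. Of the 57, 5 were tested only through the WT FAEE-SAP libraries, *Spred3* among them, so these counts are in part fixed by the filter. With FAEE-SAP in cKO limma called 0, with 2 at an unadjusted p-value under 0.05 beside 10.9% of all genes, and voom called 0. Between genotypes with saline limma called 0, with 0 unadjusted beside 2.63% of all genes, and voom called 0. With FAEE-SAP limma called 0, with 16 unadjusted beside 23% of all genes, and voom called 3, *Mapkapk2*, *Mapkapk3*, and *Dusp22*. Their log2 fold changes in limma were -1.24, -1.14, and 0.95.

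Cell type markers differed between the same groups. With FAEE-SAP in WT, 8 of 10 acinar markers fell and 5 of 5 tested neutrophil markers rose, beside 3.36% of all genes higher and 4.12% lower. Of 6 islet markers, *Sst* fell. Of 7 duct markers, limma called only *Epcam*, a general epithelial gene, which rose (log2 fold change 2.16), while 4 of the 7 estimates were below 0 and their median was -0.39. Of the neutrophil markers, *Cxcr2* was tested only because it reached the minimum in the WT FAEE-SAP libraries. In cKO with FAEE-SAP, limma called 0 of 61 markers tested, 22 had an unadjusted p-value under 0.05 beside 10.9% of all genes, and voom called 0. Between genotypes with FAEE-SAP, 6 acinar and 4 islet markers were higher in cKO and the neutrophil marker *S100a8* was lower, beside 1.66% and 0.988% of all genes. Of the duct markers, *Epcam* was lower in cKO (log2 fold change -1.24), while 4 of the 7 estimates were above 0, with a median of 0.23. Of 33 endothelial, fibroblast, macrophage, lymphocyte, and adipocyte markers tested, limma and voom called 0 in every comparison. With FAEE-SAP, 2 in WT had an unadjusted p-value under 0.05 beside 29.1% of all genes, and 8 in cKO beside 10.9%. Macrophage markers were 5 of those 8. Between genotypes it was 0 with saline beside 2.63%, and 8 with FAEE-SAP beside 23%. The latter were 4 macrophage and 4 endothelial markers. In the interaction it was 6 beside 12.6%. How far the levels of the feedback genes follow these cell types was not tested.

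Among the feedback genes with a mean of at least 1, *Dusp1* had the widest range of group means, 0.97 on the log2 scale. The non-members whose log2 values were most like it over the 8 libraries were *Errfi1* (Pearson r = 0.968), *Pfkfb3* (0.943), *Nom1* (0.939), *Fastkd3* (0.930), and *Serinc5* (0.928). These are descriptions over 8 libraries that share scaling factors and groups. *Errfi1*, which encodes a feedback inhibitor of EGF receptor family kinases, was 11.5 and 4.93 in WT saline, 8.50 and 26.6 in WT FAEE-SAP, 2.66 and 16.5 in cKO saline, and 10.9 and 13.8 in cKO FAEE-SAP. Like *Dusp1*, it was highest in replicate 2 of WT FAEE-SAP and lowest in replicate 1 of cKO saline, and most of the shared variation lay between replicates of a group. *Errfi1* was not called in any comparison. Between the 8 feedback genes themselves, the correlations ranged from -0.785 (*Dusp5* and *Spry1*) to 0.740 (*Dusp1* and *Dusp4*).

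**Figure D5:**
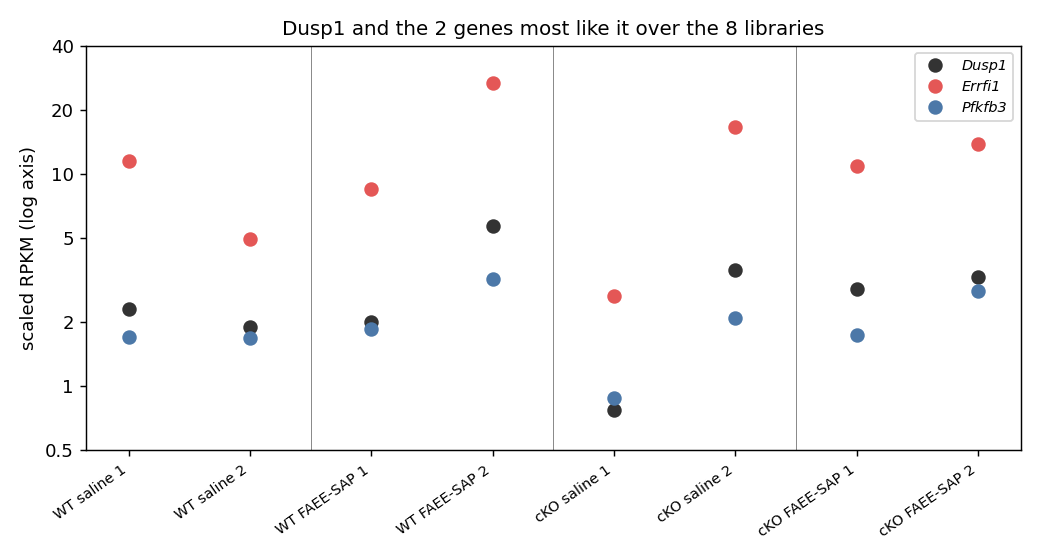
Scaled RPKM (y axis, log scale) of *Dusp1*, *Errfi1*, and *Pfkfb3* in each of the 8 libraries (x axis), with a point for each gene. All 3 genes are lowest in replicate 1 of cKO saline (0.775, 2.66, and 0.880) and highest in replicate 2 of WT FAEE-SAP (5.66, 26.6, and 3.21).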

How the data were processed

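RNA-Seq of pancreas was analysed in 8 libraries, grouped by genotype and treatment as labeled, with 2 biological replicates in each group. Per the study's methods, reads from a directional kit were filtered with fastp and mapped to GRCm38.p6 in CLC Genomics Workbench. The authors deposited RPKM for each gene, and how it was computed is not given in the sources used here. Median-of-ratios factors were taken over genes above 0 in all libraries. Genes that reached 0.5 RPKM in 2 or more libraries were tested in limma 3.58.1 (R 4.3.3), with all 8 libraries in 1 model of 4 group means, an intensity trend, and a pseudocount of 0.1. The test was checked on simulated data.

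Library totals were recovered with GENCODE vM21 exon lengths, at which 84.2% to 85.5% of values under 20 reads were whole within 0.1 reads. Reads summed to 100.3% to 105.7% of totals, so they are approximate. The 10 genes, the gene lists, and the tests were chosen with earlier results of these data known. Named are all 10 genes, up to 4 called genes of each pathway list per comparison, and the 5 genes most like 1 member. That member had the widest range of group means of log2 values among those with a mean of at least 1. Same-numbered replicates of different groups had correlations of -0.522 to 0.399 across genes, so numbers were not taken to pair samples. Alternatives were other scalings, filters, pseudocounts, thresholds, and sets of libraries, and voom, added after seeing the data.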

Additional observations from a re-analysis of the deposited data

How the results depend on the processing

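Of the feedback genes that reached the minimum for testing, 8 of 10 in the report's fit, 0 were called in each of the 5 comparisons under the alternatives run, except that RPKM as deposited called 6 higher with FAEE-SAP in WT. A fit of only 4 libraries cannot give the interaction. Of 504 values recomputed for single feedback genes, which with saline between genotypes and in the interaction covered *Dusp2* and *Spry2* alone, 30 changed sign, 6 passed the threshold where they had not, and 468 kept both. *Dusp2* and *Spry2* had the lowest and highest estimates in those comparisons. Sign changes of other genes there, given below, are not among the 30. With 2 libraries per group, 20% of simulated 2-fold changes were called with FAEE-SAP in WT, a rate that need not hold for the other comparisons. Genes under about 10 reads, such as *Dusp4* in WT saline, are limited by depth.

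Counts over all genes moved far more. With FAEE-SAP in WT, limma called 833 genes, and the number was 7202 with RPKM as deposited, 414 with a pseudocount of 1, 541 with no filter, 1266 with an unadjusted p-value, and 172 to 817 with each library left out in turn, lowest without WT saline replicate 1. With FAEE-SAP in cKO it was 15, and 745 as deposited, 5 with only the 4 libraries of the comparison, 8 with voom, 366 unadjusted, and 6 to 14 with a library left out. For cKO against WT with saline it was 0, and 3 as deposited, 3 with quantile normalization, 99 unadjusted, and 0 to 1 with a library left out. For cKO against WT with FAEE-SAP it was 295, and 4454 as deposited, 186 with a pseudocount of 1, 64 with no filter, 140 with only the 4 libraries, 876 unadjusted, and 9 to 251 with a library left out, lowest without cKO FAEE-SAP replicate 2. For the interaction it was 8, and 791 as deposited, 25 with quantile normalization, 24 with a pseudocount of 1, 1 with a pseudocount of 0.01, 0 with no filter, 35 with an RPKM minimum of 2, 3 without the intensity trend, 782 unadjusted, and 0 to 4 with a library left out. With the replicate block the counts were 719, 9, 0, 191, and 0 in the same order, and 0 feedback genes were called in each. The causes of these shifts were not tested.

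As deposited, where all genes shifted together, the log2 fold change changed sign in WT for *Dusp2* (0.91) and *Spry1* (0.61). In cKO it did for *Spry1* (0.56), *Spry2* (0.39), and *Spred1* (0.51). In cKO against WT with FAEE-SAP it did for *Dusp2* (-0.74), *Dusp6* (-0.29), *Spry1* (-0.28), *Spry2* (-0.73), and *Spred1* (-0.69). With saline it did for *Spry1* (-0.23), and in the interaction for *Dusp1* (-0.52), *Dusp6* (-0.33), and *Spry1* (-0.05). *Spred1* in WT was -0.0020 with quantile normalization, -0.0024 with a pseudocount of 1, and -0.017 with an RPKM minimum of 2.

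Leaving out 1 library in turn also turned several estimates. In WT, *Dusp1* ranged from -0.049 to 1.39, *Dusp2* from -0.80 to 0.21, *Dusp6* from -0.13 to 0.55, and *Spred1* from -0.45 to 0.50. In cKO, *Dusp1* ranged from -0.20 to 1.86, *Dusp6* from -0.18 to 1.18, *Spry1* from -0.40 to 0.32, and *Spred1* from -0.36 to 0.16. In cKO against WT with FAEE-SAP, *Dusp1* ranged from -0.87 to 0.58, *Dusp2* from -0.11 to 0.42, *Dusp4* from -0.49 to 0.32, *Dusp5* from -0.80 to 0.19, *Dusp6* from -0.051 to 1.31, *Spry2* from -0.012 to 0.35, and *Spred1* from -0.026 to 0.48. A group left with 1 library was assumed to vary like the others. *Dusp4* could not be tested without either WT FAEE-SAP library, since it then fell under the minimum.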
